A study of Arabidopsis thaliana with 16 samples.

Results

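Wild-type (WT) Arabidopsis thaliana plants of the Col-0 accession held for 12 h at 28 °C were set against WT plants taken at the start of that treatment, 0 h. The comparison used 4 of the 16 RNA-seq libraries of the series, 2 per group, chosen by their genotype and time labels. In each group 1 library was numbered R1 and 1 R2, and libraries were paired by that number. All plants had been raised at 18 °C under 16 h of light and 8 h of dark, and the sampled material was inflorescences with their juvenile leaves from plants that had just bolted. The other groups were WT at 3 and 48 h and the mutant zed1-D at 0, 3, 12 and 48 h, also with 2 libraries each. Messenger RNA was captured on poly(dT) beads. Clock times of sampling and what a replicate was (plant, pool or repeat library) are not in the labels. Each p-value reflects the spread left over all 16 libraries once group and replicate number are fitted, and that spread may be technical. Time at 28 °C and the time of day of sampling cannot be told apart in this comparison. By the labels, none of the 16 libraries came from plants kept at 18 °C for the same 12 h.

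The 12 h libraries held 4.82 M (R1) and 11.4 M (R2) counted reads, and the 0 h libraries held 5.86 M (R1) and 10.4 M (R2). Across the series the R2 libraries were the deeper ones, and same-numbered libraries deviated together from their group means in all 28 pairs of groups (Pearson r across genes of 0.527 to 0.708). The leaf marker RBCS1A, a Rubisco gene, was present at 26720 and 24250 CPM at 12 h, against 32330 and 28110 CPM at 0 h. The 24 floral and meristem genes tested were present at a summed 351.5 and 345.9 CPM at 12 h, against 422.2 and 416.7 CPM at 0 h. That list also holds genes of meristems and of organ growth, such as ANT, so its sum does not mark flowers alone. Chloroplast-encoded reads made up 0.932% and 1.42% of counts at 12 h, and 1.02% and 1.81% at 0 h. In bulk tissue, fewer cells of a type and less RNA per cell cannot be told apart.

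As background, plants sense moderate warmth through the clock, light receptors and PIF transcription factors, which drive elongation growth, and through heat shock factors that induce chaperones. Growth at cool temperature keeps cold-protection genes partly active. Warmth is also known to dampen salicylic acid defence in leaves. Iron status is read separately, by a cascade of bHLH transcription factors that raise uptake and mobilisation genes and lower the ferritins that store iron.

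Of 19312 genes tested, 4107 differed between WT 12 h and WT 0 h in edgeR's quasi-likelihood test at a Benjamini-Hochberg adjusted p under 0.05, which is 21.3%. Of these, 2004 were higher at 12 h (10.4% of genes tested) and 2103 were lower (10.9%). Without the replicate pairing, 292 genes passed, 159 higher and 133 lower. Most changes were small: the median log2 fold was 0.51 among genes that rose and −0.50 among genes that fell, and 547 genes (2.83%) also had a log2 fold of at least 1. Both replicate pairs moved the same way for 99.9% of the genes that rose and 99.6% of those that fell. The genes were called from these same pairs, so this follows largely from the calling and is no separate support. The libraries of the 2 groups did not overlap for 73.9% of the genes that rose and 69.1% of those that fell, against 33.9% of all genes tested. The naming rule for the 12 largest changes each way took only genes that passed, moved alike in both pairs and did not overlap. Values below are TMM-scaled CPM (reads of a gene scaled to the size of its library), given as R1 and R2, and log2 folds are 12 h over 0 h with their standard error (SE).

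**Figure D1:**
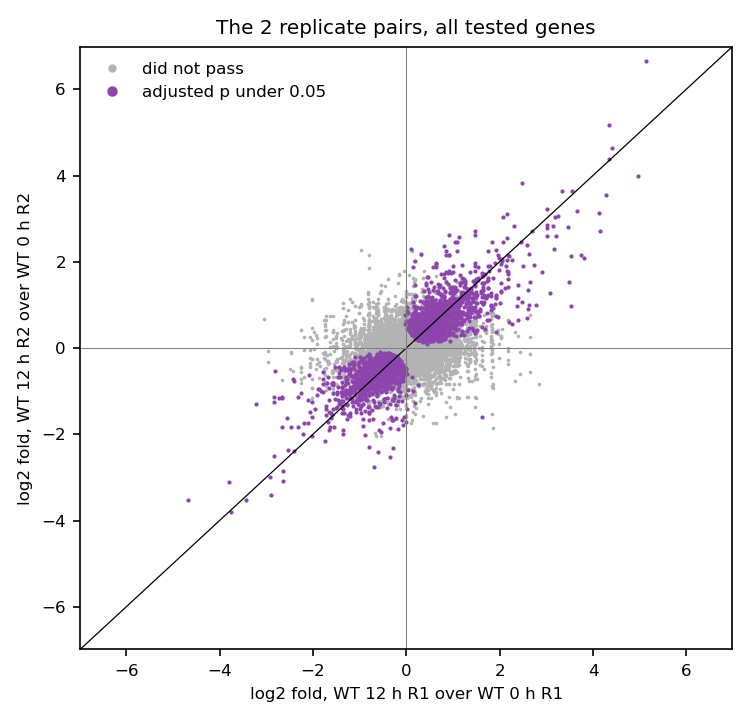
Log2 fold of every tested gene in the R2 pair (vertical axis) against the R1 pair (horizontal axis), WT 12 h over WT 0 h; purple points have an adjusted p under 0.05, grey points do not, and the diagonal marks equal folds. Nearly all called genes lie in the upper right or lower left, 2001 of 2004 that rose and 2094 of 2103 that fell. They were called from these same pairs, so this is no separate support. The cloud of smaller changes is dense around 0.

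Of 20 genes of the iron-deficiency response tested, 9 rose and 5 fell, a share of 70% against 21.3% of all genes. Without the pairing 7 rose and 2 fell. The genes that rose included 4 closely related bHLH transcription factors of the leaf and root iron response. Since the start levels of these 4 were near 0, the stretches before their annotated starts are shown first, from the RefSeq TAIR10.1 assembly, 5′ to 3′ on the strand of each gene. Capitals mark the G-box, CACGTG, searched on both strands (it is its own reverse complement). The windows are chr3:21085246-21085495 for BHLH38 (minus strand), chr3:21087711-21087960 for BHLH39 (minus strand), chr2:17199455-17199704 for BHLH100 (minus strand) and chr5:1139634-1139883 for BHLH101 (minus strand).
BHLH38: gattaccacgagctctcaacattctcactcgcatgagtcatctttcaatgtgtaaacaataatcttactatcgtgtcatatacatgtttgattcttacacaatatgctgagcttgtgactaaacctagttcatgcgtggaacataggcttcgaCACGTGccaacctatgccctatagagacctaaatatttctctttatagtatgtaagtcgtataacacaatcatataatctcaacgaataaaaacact
BHLH39: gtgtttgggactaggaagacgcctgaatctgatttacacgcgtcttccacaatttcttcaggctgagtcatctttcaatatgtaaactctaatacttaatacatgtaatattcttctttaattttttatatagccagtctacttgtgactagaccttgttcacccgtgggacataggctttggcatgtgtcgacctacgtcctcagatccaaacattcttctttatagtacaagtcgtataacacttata
BHLH100: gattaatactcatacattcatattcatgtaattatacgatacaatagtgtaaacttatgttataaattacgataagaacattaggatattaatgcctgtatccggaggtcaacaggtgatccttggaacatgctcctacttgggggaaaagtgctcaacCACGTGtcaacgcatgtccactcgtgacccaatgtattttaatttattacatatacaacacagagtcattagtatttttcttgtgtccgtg
BHLH101: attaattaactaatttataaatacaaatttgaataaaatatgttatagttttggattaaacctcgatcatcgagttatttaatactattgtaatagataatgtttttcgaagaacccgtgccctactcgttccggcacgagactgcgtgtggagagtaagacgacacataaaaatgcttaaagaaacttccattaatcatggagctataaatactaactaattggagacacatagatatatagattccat
BHLH38 and BHLH100 each held 1 match, and these letters were not found in the windows of BHLH39 and BHLH101. In windows of 250 bases before to 50 bases after the start, 7 of the 20 iron-list genes held a G-box (35%). These were 5 of the 9 that rose (55.6%) and 2 of the 5 that fell (40%). Of 18944 tested genes with a window, 8.83% held it.

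BHLH100 had 21.6 and 33.9 CPM at 12 h, against 0.373 and 0.0951 CPM at 0 h. Its summed counts were 501 reads at 12 h and 3 reads at 0 h, a depth-scaled ratio of 161 with a counting interval of 54.8 to 783 (95%). BHLH38 had 123 reads at 12 h and 0 at 0 h, at least 39.5-fold higher against a floor of 3 reads over the group. BHLH39 had 65 reads at 12 h and 1 at 0 h, a ratio of 62.6 (10.9 to 2510), and BHLH101 had 26 reads at 12 h and 0 at 0 h, at least 8.35-fold higher. These last 3 factors were named after their values were seen. All 4 were at or near 0 in both 0 h libraries and clearly counted in both 12 h libraries.

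FRO3, a ferric-chelate reductase, had 61.7 and 43.0 CPM at 12 h, against 4.66 and 4.56 CPM at 0 h (log2 fold 3.42, SE 0.15, edgeR adjusted p = 5.78e-19). BTS, an E3 ligase that restrains the iron-deficiency response, had 229 and 196 CPM at 12 h, against 78.5 and 52.8 CPM at 0 h (log2 fold 1.73, SE 0.095). The 12 h libraries lay above both 0 h libraries for each gene, which for FRO3 the naming rule required. The bHLH factor PYE and the phloem iron transporter OPT3 also rose, with log2 folds of 1.34 and 0.69. ORG1 had 262 and 266 CPM at 12 h, against 40.3 and 40.6 CPM at 0 h, and rose by 2.71 (log2). AT2G30766, which carries no symbol in the names used here, rose by 3.15. The iron-list symbols IMA1, IMA2, IMA3 and BTSL1 matched no locus by name, so they are not in the count of iron genes.

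Iron storage moved the other way. FER1, a plastid ferritin, had 12.7 and 15.9 CPM at 12 h, against 75.0 and 83.3 CPM at 0 h (log2 fold −2.44, SE 0.12, edgeR adjusted p = 5.98e-18). Its 12 h libraries held the 2 lowest values, a separation that the naming rule required. The ferritins FER4 and FER3 fell by 1.27 and 0.81 on the log2 scale. NAS3, a nicotianamine synthase, had 3 reads at 12 h and 24 at 0 h, a ratio of 0.12 (0.0232 to 0.397). The root uptake genes IRT1 (0.216 and 0.591 CPM at 12 h, against 1.12 and 0.475 CPM at 0 h) and FRO2 (0.863 and 1.52 CPM, against 2.24 and 1.90 CPM) were scarcely counted and did not pass.

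The direction at 12 h lay within a longer course. FRO3 started at 4.66 and 4.56 CPM, reached 32.1 and 19.7 CPM after 3 h and 61.7 and 43.0 CPM after 12 h, and stood at 163 and 106 CPM after 48 h. BHLH100 started at 0.373 and 0.0951 CPM and had 6.2 and 10.7 CPM after 3 h, 21.6 and 33.9 CPM after 12 h and 85.7 and 125 CPM after 48 h. Both genes were thus higher at each later time. FER1 started at 75.0 and 83.3 CPM and had its lowest values after 12 h, 12.7 and 15.9 CPM, with 21.8 and 22.5 CPM after 48 h. The tests against 3 and 48 h share the 12 h libraries with the test against 0 h. In the test of WT 12 h against WT 48 h, 10 of the 20 iron genes were lower at 12 h (9.64% of all genes tested were lower at 12 h). Of the same 20 genes, 9 were higher and 2 lower at 12 h than at 3 h, against 6.57% and 5.65% of all genes.

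**Figure D2:**
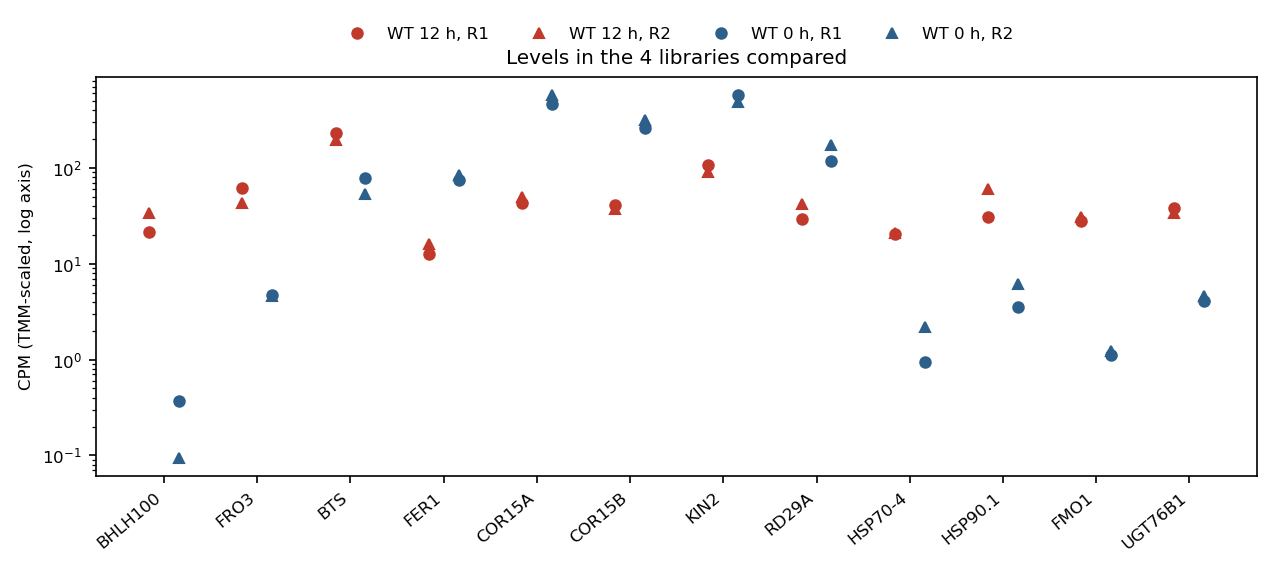
CPM on a log axis in the 4 libraries compared, WT 12 h left (red) and WT 0 h right (blue), circles R1 and triangles R2, for iron, cold, heat shock and defence genes. BHLH100, FRO3, BTS, HSP70-4, HSP90.1, FMO1 and UGT76B1 are higher in both 12 h libraries, and FER1, COR15A, COR15B, KIN2 and RD29A are lower in both. Apart from BHLH100 and BTS, the genes were named by a rule that required this separation.

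Of 15 cold-protection genes tested, 10 fell at 12 h and 5 did not pass, against 10.9% of all genes that fell, with a list median of −1.06 on the log2 scale against 0.01 for all genes. Without the pairing 5 fell. COR15A encodes a chloroplast protein that protects membranes in freezing. RD29A is a marker of cold and drought. Both are textbook targets of the CBF factors, which bind the CRT/DRE core CCGAC. The 250 bases before each start are shown with CCGAC on either strand in capitals, from chr2:17712331-17712580 for COR15A (minus strand) and chr5:21240467-21240716 for RD29A (plus strand) of TAIR10.1.
COR15A: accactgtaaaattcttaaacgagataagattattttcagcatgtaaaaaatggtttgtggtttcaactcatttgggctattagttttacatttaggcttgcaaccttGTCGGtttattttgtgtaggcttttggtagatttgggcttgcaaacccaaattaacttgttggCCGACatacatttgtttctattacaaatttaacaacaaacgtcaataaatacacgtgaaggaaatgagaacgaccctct
RD29A: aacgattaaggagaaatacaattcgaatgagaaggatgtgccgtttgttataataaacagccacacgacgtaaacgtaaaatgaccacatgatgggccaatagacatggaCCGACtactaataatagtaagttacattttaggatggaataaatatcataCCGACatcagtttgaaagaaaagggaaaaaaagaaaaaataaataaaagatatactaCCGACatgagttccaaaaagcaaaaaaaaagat
COR15A held 2 matches and RD29A held 3. In the longer windows, 6 of the 15 cold genes held the core (40%), against 16.3% of all tested genes with a window. Of the 10 cold genes that fell, 4 held it, also 40%, and of all genes that fell 15.7% did. COR15B, KIN1 and KIN2 fell without holding it.

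COR15A had 42.9 and 49.7 CPM at 12 h, against 466 and 578 CPM at 0 h (log2 fold −3.5, SE 0.088, edgeR adjusted p = 2.04e-26). COR15B, its neighbour, had 40.8 and 37.0 CPM at 12 h, against 257 and 316 CPM at 0 h (log2 fold −2.92, SE 0.10). KIN2 had 108 and 91.5 CPM at 12 h, against 574 and 483 CPM at 0 h (log2 fold −2.40, SE 0.091). The 12 h libraries were below both 0 h libraries for all 3 genes, which the naming rule required. RD29A fell by 2.04 on the log2 scale, with 29.3 and 41.6 CPM at 12 h, against 119 and 172 CPM at 0 h. KIN1, a close copy of KIN2, fell by 3.06. COR15A and COR15B, and KIN1 and KIN2, are similar pairs whose reads may be split imperfectly. Of the 15 genes, 10 were lower at 12 h than at 48 h (9.64% of all genes tested), with log2 folds of 12 h over 48 h of −1.68 for COR15A and −1.50 for KIN2. Over the course, COR15A started at 466 and 578 CPM and had 124 and 162 CPM after 3 h, 42.9 and 49.7 CPM after 12 h and 140 and 156 CPM after 48 h.

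Of 23 heat shock factors and chaperones tested, 8 rose and 15 did not pass, 34.8% passing against 21.3% of all genes tested, where 10.4% rose. Without the pairing 2 rose. HSP70-4, a cytosolic Hsp70, had 20.5 and 20.9 CPM at 12 h, against 0.933 and 2.19 CPM at 0 h (log2 fold 3.55, SE 0.23, edgeR adjusted p = 2.20e-14). HSP90.1, the heat-inducible cytosolic Hsp90, had 30.6 and 59.5 CPM at 12 h, against 3.54 and 6.18 CPM at 0 h (log2 fold 3.23, SE 0.17). Both genes were higher in each 12 h library than in either 0 h library, as the naming rule required. The coactivator MBF1C rose by 1.60, the co-chaperone ROF2 by 1.32 and the disaggregase HSP101 by 1.07 on the log2 scale. HSFA2, a heat-induced heat shock factor, had 3.88 and 8.11 CPM at 12 h, against 0.933 and 3.99 CPM at 0 h, and rose by 1.18. HSFA2 overlapped between groups and missed the threshold without the R2 library of 0 h (adjusted p = 0.0505). The small chaperone HSP18.2, usually a strong heat marker, had 0.431 and 1.69 CPM at 12 h, against 0.746 and 2.76 CPM at 0 h, and did not pass. Of 14 chaperones of the endoplasmic reticulum, 7 rose and 1 fell, and with any 1 of the 4 libraries left out 3 to 5 rose and 0 or 1 fell. BIP2, a binding protein of that compartment, had 468 and 599 CPM at 12 h, against 361 and 425 CPM at 0 h, and rose by 0.44. BIP1 and BIP2 are near-identical, so their counts are uncertain.

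Of 26 genes of the salicylic acid defence branch tested, 11 rose, 3 fell and 12 did not pass. The share passing was 53.8%, against 21.3% of all genes, of which 10.4% rose. Without the pairing 8 rose and 0 fell. FMO1, which makes the mobile defence signal N-hydroxypipecolic acid, had 27.6 and 30.8 CPM at 12 h, against 1.12 and 1.24 CPM at 0 h (log2 fold 4.62, SE 0.21, edgeR adjusted p = 1.91e-18). UGT76B1, a glucosyltransferase of the same pathway, had 38.0 and 33.9 CPM at 12 h, against 4.103 and 4.56 CPM at 0 h (log2 fold 3.00, SE 0.16). Both 12 h libraries were above both 0 h libraries for each gene, as the naming rule required. ALD1, an aminotransferase that starts pipecolic acid synthesis, rose by 1.86 on the log2 scale. The salicylic acid synthesis enzyme ICS1 had 50.3 and 63.0 CPM at 12 h, against 22.6 and 28.0 CPM at 0 h (log2 fold 1.17, SE 0.099), and PBS3 and EDS5 of that route rose by 1.12 and 0.86. PR1, a classic marker of the response, had 134 and 195 CPM at 12 h, against 58.9 and 91.8 CPM at 0 h (log2 fold 1.12, SE 0.082).

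The rise was not seen at 3 or 48 h for the leading genes. FMO1 started at 1.12 and 1.24 CPM and had 0.459 and 0.839 CPM after 3 h, 27.6 and 30.8 CPM after 12 h and 0.599 and 0.595 CPM after 48 h. PR1 started at 58.9 and 91.8 CPM and had 7.35 and 13.1 CPM after 3 h, 134 and 195 CPM after 12 h and 36.4 and 51.2 CPM after 48 h. PR1 was thus lowest at 3 h, a fold of −2.84 (log2) against 0 h, and highest at 12 h. In the tests, 24 of the 26 genes were higher at 12 h than at 3 h (6.57% of all genes tested) and 20 of the 26 were higher at 12 h than at 48 h (10.1% of all genes tested). PR2, a glucanase, fell at 12 h, with 101 and 92.6 CPM at 12 h against 129 and 118 CPM at 0 h (log2 fold −0.35). Without the R2 library of 12 h PR2 had a log2 fold of −0.32 and an adjusted p of 0.0703. PR5 fell by 0.51 and WRKY54 by 0.31 on the log2 scale.

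**Figure D3:**
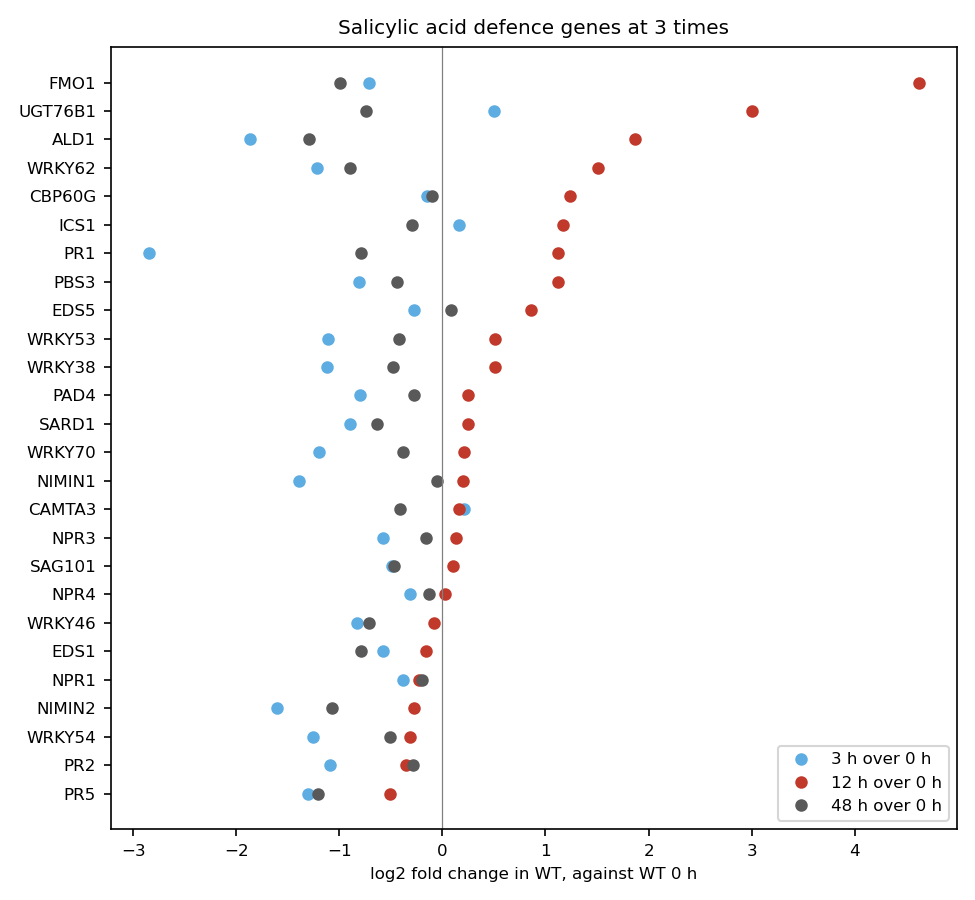
Log2 fold against WT 0 h of the 26 salicylic acid defence genes in WT at 3 h (light blue), 12 h (red) and 48 h (grey), ordered from the highest to the lowest 12 h fold. All 3 folds share the 0 h libraries. FMO1 at 12 h lies at 4.62, and PR1 at 3 h lies at −2.84.

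ZED1, the pseudokinase altered in zed1-D, had 6.04 and 10.1 CPM at 12 h, against 6.71 and 12.1 CPM at 0 h, and did not pass (adjusted p = 0.411). The immune receptor ZAR1, with which ZED1 acts, had 154 and 174 CPM at 12 h, against 141 and 166 CPM at 0 h (log2 fold 0.09, SE 0.095, adjusted p = 0.555). The receptor SNC1 had 145 and 162 CPM at 12 h, against 130 and 146 CPM at 0 h (log2 fold 0.16, SE 0.084, adjusted p = 0.197), and sits in a cluster of similar receptor genes. Of 19 immune receptors and partners tested, 5 rose, led by RPP4 at 0.62 and RLM3 at 0.50 (log2), a share of 26.3% near the 21.3% of all genes. Of these, 2 rose without the R2 library of either group. RPP4 belongs to the same cluster as SNC1.

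Of 28 jasmonate genes tested, 13 rose, 2 fell and 13 did not pass, 53.6% passing against 21.3% of all genes, where 10.4% rose. Without the pairing 1 rose and 1 fell. LOX2, the lipoxygenase that begins jasmonate synthesis in chloroplasts, had 3690 and 2761 CPM at 12 h, against 2456 and 1553 CPM at 0 h (log2 fold 0.71, SE 0.075, edgeR adjusted p = 4.93e-09). VSP2, a storage protein induced by jasmonate, rose by 0.63, and JAZ9, a repressor of the pathway, by 0.66 on the log2 scale. The defensin PDF1.2A had 1 read at 12 h and 42 at 0 h, a ratio of 0.0229 (0.000568 to 0.135). Of 14 senescence-associated genes, 6 rose and 1 fell (0 fell with any library but R1 of 12 h left out), with SAG20 at 80.7 and 67.1 CPM at 12 h, against 30.4 and 27.6 CPM at 0 h (log2 fold 1.34). AIG1, a gene induced by bacterial effectors, had 45.7 and 78.6 CPM at 12 h, against 5.41 and 11.1 CPM at 0 h (log2 fold 2.88, SE 0.17). It stood at 1.61 and 2.42 CPM after 3 h, and after 48 h at 0 and 2.64 CPM.

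The evening complex gene LUX and the pseudo-response regulator PRR5 are shown with the evening element, AAAATATCT on either strand, in capitals, within the 250 bases before their starts. The windows are chr3:17182792-17183041 for LUX (plus strand) and chr5:8358547-8358796 for PRR5 (minus strand) of TAIR10.1.
LUX: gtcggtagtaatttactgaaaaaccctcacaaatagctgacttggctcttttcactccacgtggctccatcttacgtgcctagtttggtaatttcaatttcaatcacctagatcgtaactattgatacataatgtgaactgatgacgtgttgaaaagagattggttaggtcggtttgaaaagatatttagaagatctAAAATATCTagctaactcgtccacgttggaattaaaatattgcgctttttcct
PRR5: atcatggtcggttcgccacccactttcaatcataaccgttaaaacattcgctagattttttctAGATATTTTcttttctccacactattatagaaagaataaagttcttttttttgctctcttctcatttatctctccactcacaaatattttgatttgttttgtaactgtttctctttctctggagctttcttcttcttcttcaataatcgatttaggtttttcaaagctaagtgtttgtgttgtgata
Each window held 1 match. In the longer windows, 5 of 15 day and evening clock genes held the element (33.3%), against 3.08% of tested genes with a window. These included 3 of the 6 that rose (50%). Among all genes, 3.33% of those that rose and 4.25% of those that fell held it. Of the 15 morning clock genes, 10 held a G-box (66.7%), against 8.83%. These included 5 of the 7 that rose (71.4%). Among all genes, 10.1% of those that rose and 10% of those that fell held it.

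LUX had 57.8 and 101 CPM at 12 h, against 34.3 and 60.5 CPM at 0 h (log2 fold 0.75, SE 0.10, edgeR adjusted p = 7.65e-07), and PRR5 had 16.6 and 17.0 CPM at 12 h, against 9.88 and 9.98 CPM at 0 h (log2 fold 0.76, SE 0.15). For PRR5 the groups did not overlap, and for LUX they overlapped across pairs though each pair rose. Of 15 day and evening clock genes, 6 rose (40%), and 7 of 15 morning clock genes rose (46.7%), against 10.4% of all genes tested. The morning genes that rose included LNK1 (21.4 and 22.0 CPM at 12 h, against 9.51 and 10.8 CPM at 0 h, log2 fold 1.07). Without the pairing 1 of each list rose. Without the R2 library of 0 h, 3 evening and 4 morning genes rose, and without the R2 library of 12 h, 3 evening genes rose. The morning factors CCA1 and LHY were low at both ends of the comparison. CCA1 started at 0.560 and 0.475 CPM and had 3.44 and 4.19 CPM after 3 h, 1.08 and 0.591 CPM after 12 h and 3.197 and 3.23 CPM after 48 h. LHY started at 0.187 and 0.856 CPM and had 4.82 and 4.94 CPM after 3 h, 1.29 and 1.60 CPM after 12 h and 10.4 and 8.33 CPM after 48 h. TOC1, an evening gene that represses them, stayed between 147 and 173 CPM in all 8 WT libraries.

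The RNA-binding proteins GRP7 and GRP8, clock outputs that also respond to cold, fell at 12 h. They belong to a list of temperature-linked RNA-binding proteins, of which 71.4% fell, against 10.9% of all genes tested. GRP7 had 821 and 644 CPM at 12 h, against 1550 and 1304 CPM at 0 h (log2 fold −0.97, SE 0.075, edgeR adjusted p = 3.16e-12), and GRP8 fell by 0.82 on the log2 scale. GRP7 was far lower at 3 h, at 206 and 167 CPM, and stood at 1151 and 1016 CPM at 48 h. Of the 7 genes of this list, 5 fell, and 1 fell without the pairing and 3 without the R2 library of 12 h.

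**Figure D4:**
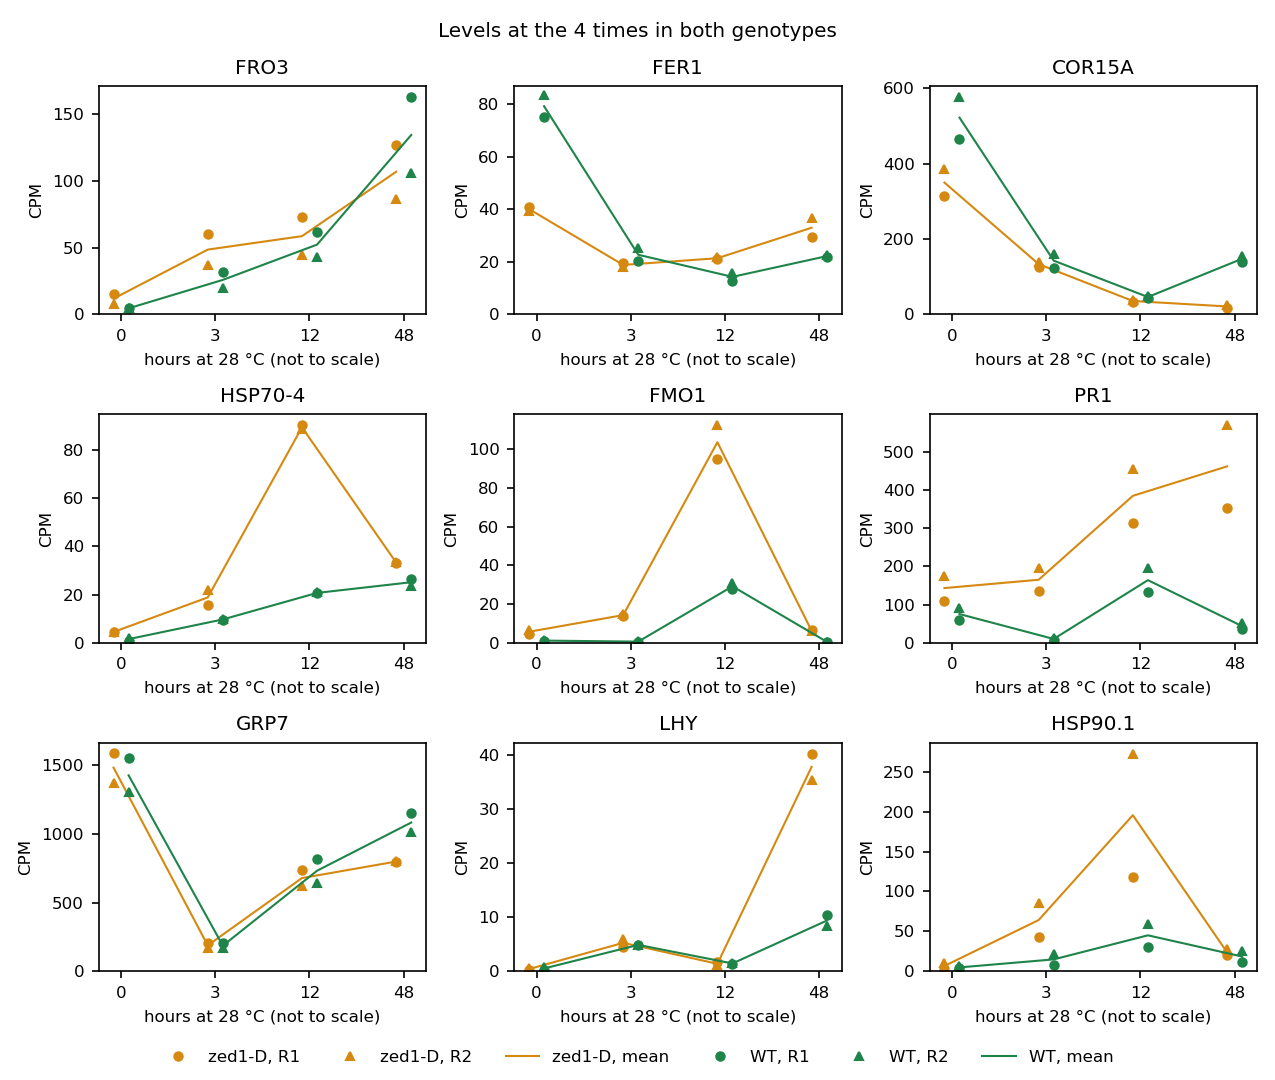
CPM of 9 genes at 0, 3, 12 and 48 h at 28 °C (times evenly spaced), zed1-D in orange and WT in green, circles R1, triangles R2, lines through the mean of 2 libraries. In WT, FMO1 and PR1 are highest at 12 h, FRO3 at 48 h, and COR15A is lowest at 12 h.

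Of 25 PIF factors and warm-growth outputs tested, 6 rose and 19 did not pass, a share of 24% near the 21.3% of all genes, or 3 rose without the R1 library of 0 h. PIF4, the factor central to warm growth, had 34.5 and 26.0 CPM at 12 h, against 19.4 and 20.6 CPM at 0 h (log2 fold 0.53, SE 0.13, edgeR adjusted p = 0.00249). Without the R1 library of 0 h PIF4 had a log2 fold of 0.38 and an adjusted p of 0.0864. PIF5 had 27.4 and 25.8 CPM at 12 h, against 18.5 and 14.1 CPM at 0 h (log2 fold 0.75, SE 0.13). Of 12 auxin-response genes, 3 rose by 0.37 to 0.64 on the log2 scale, or 1 without the R2 library of 12 h. Of 11 genes of gibberellin and brassinosteroid synthesis and breakdown, edgeR and DESeq2 both called 0, and 3 had an unadjusted p under 0.05 in edgeR. Among 11 fatty acid desaturases, 3 rose, with FAD2 at 1242 and 802 CPM at 12 h, against 788 and 472 CPM at 0 h (log2 fold 0.71). ADS1 had 24.2 and 14.9 CPM at 12 h, against 7.65 and 4.47 CPM at 0 h (log2 fold 1.69). The shares passing, 25% of the auxin-response genes and 27.3% of the desaturases, were near the 21.3% of all genes.

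Most light-harvesting and chlorophyll genes that passed were lower, while Rubisco small subunit genes moved both ways. Of 34 leaf photosynthesis genes, 14 fell and 6 rose, 58.8% passing against 21.3% of all genes, and 1 of each passed without the pairing. Leaving out the R1 library of 12 h gave 8 lower and 4 higher, leaving out its R2 library 8 and 5, leaving out the R1 library of 0 h 8 and 6, and leaving out its R2 library 10 and 3. LHCB1.1 had 170 and 79.6 CPM at 12 h, against 2307 and 1105 CPM at 0 h (log2 fold −3.78, SE 0.093), but LHCB1.1 and LHCB1.3 are near-identical and share reads. LHCB1.3 fell by 0.97. LHCB3 fell by 0.69 and LHCA3 by 0.60 on the log2 scale. RBCS2B, a Rubisco small subunit gene with close copies, had 4644 and 4602 CPM at 12 h, against 2336 and 2187 CPM at 0 h (log2 fold 1.03, SE 0.076). RBCS1A fell by 0.24, and RCA, Rubisco activase, rose by 0.79. Of 21 chlorophyll genes, 10 fell and 2 rose, or 1 rose without the R1 library of 12 h or the R2 library of 0 h. PORA, a protochlorophyllide reductase used in greening, had 1.29 and 2.62 CPM at 12 h, against 39.0 and 32.6 CPM at 0 h (log2 fold −3.95, SE 0.21). HEMA1, the first committed step of tetrapyrrole synthesis, fell by 0.93. Of 78 chloroplast-encoded genes tested, 41 fell and 1 rose, where 10.9% and 10.4% of all genes did so. Their median was −0.22 in the R1 pair and −0.76 in the R2 pair. RNA was captured on poly(dT) beads, and how far these counts follow the level of chloroplast RNA was not tested.

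Storage and sugar genes were mixed. The share passing was 29.6% for starch, 25% for dark and sugar-starvation, 27.3% for flavonoid and 25% for light-responsive genes. These shares are near the 21.3% of all genes. It was 40.9% for glucosinolate and 37.5% for abscisic acid genes. Of 27 starch genes, 6 rose and 2 fell, with the beta-amylase BAM5 at 107 and 123 CPM at 12 h, against 66.0 and 69.9 CPM at 0 h (log2 fold 0.77). Leaving out the R2 library of 12 h gave 2 higher and 1 lower starch gene. Of 24 dark and sugar-starvation genes, 6 rose, led by DIN10 at 33.9 and 26.6 CPM at 12 h, against 10.6 and 10.4 CPM at 0 h (log2 fold 1.48), or 3 without the R2 library of 12 h. Of 22 glucosinolate genes, 3 rose and 6 fell, where 10.4% and 10.9% of all genes did so. In this list 0 rose and 6 fell without the R2 library of 12 h, and 1 rose and 5 fell without that of 0 h. The aliphatic pathway genes CYP79F1, MAM1 and IMD1 fell by 0.41, 0.42 and 0.45. Of 22 flavonoid genes, 3 rose and 3 fell, and the anthocyanin regulator PAP1 fell by 1.09. With any 1 library left out, 2 or 3 flavonoid genes passed. Of 24 abscisic acid genes, 5 rose and 4 fell, but 2 rose and 2 fell without the R2 library of 0 h. Without the R2 library of 12 h, edgeR called 0 of them. Among 8 light-responsive genes, SIGE rose and ELIP1 fell, and SIGE did not pass without the R2 library of either group (adjusted p = 0.149 and 0.148).

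Among growth and flower lists, the members that passed were all lower, though most members did not pass in each list but the ribosome one, where 10.9% of all genes tested were lower. Of 11 ribosome biogenesis factors, 6 fell, with a median of −0.31, and 2 fell without the pairing. NUC-L1, nucleolin, had 274 and 397 CPM at 12 h, against 517 and 755 CPM at 0 h (log2 fold −0.92, SE 0.071, edgeR adjusted p = 3.13e-12), and FIB2, fibrillarin, fell by 1.22. Of 25 genes of the G2/M phase, 11 fell, with a median of −0.42, and 5 fell without the R2 library of 12 h. CYCA1;1, a mitotic cyclin, had 20.5 and 26.4 CPM at 12 h, against 37.1 and 35.2 CPM at 0 h (log2 fold −0.57). Of 24 DNA replication genes, 4 fell, or 16.7%, and 2 fell by DESeq2. edgeR called 0 without the R1 library of 12 h or the R2 library of 0 h, and 2 without the R2 library of 12 h.

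Of 24 floral and meristem genes, 8 fell, with a median of −0.41, and 1 fell without the pairing. With the R2 library of 12 h left out 4 fell, and with either 0 h library left out 5 fell. SEP2, a floral homeotic factor, had 6.04 and 7.35 CPM at 12 h, against 13.1 and 13.5 CPM at 0 h (log2 fold −0.95, SE 0.18). AINTEGUMENTA, ANT, which promotes organ growth, fell by 0.54. VGD1, a pollen pectin methylesterase, had 3.24 and 2.87 CPM at 12 h, against 8.77 and 8.65 CPM at 0 h (log2 fold −1.53, SE 0.23), and was among 4 of 13 mature pollen genes that fell. Without the R2 library of 12 h 2 pollen genes fell, and without that of 0 h 1 fell. Of 12 tapetum and pollen wall genes, 4 fell, 3 by DESeq2, and 2 with the R1 library of either group or the R2 library of 0 h left out. Without the R2 library of 12 h, edgeR called 0 tapetum genes. PGA4, an exopolygalacturonase gene, had 3.45 and 3.97 CPM at 12 h, against 11.4 and 15.4 CPM at 0 h (log2 fold −1.88). The summed level of the 13 pollen genes tested was 28.0 and 31.7 CPM at 12 h, against 46.1 and 48.8 CPM at 0 h. That of the 12 tapetum and pollen wall genes tested was 90.2 and 114 CPM at 12 h, against 118 and 165 CPM at 0 h. The part of a change in flower stage in these results was not tested.

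Of 24 flowering-time genes, 2 were higher and 5 lower, 29.2% passing against 21.3% of all genes. Among all genes tested 10.4% were higher and 10.9% lower. Leaving out the R2 library of either group gave 0 higher and 3 lower, and without the R1 library of 12 h 1 was higher and 4 lower. SOC1, a floral integrator, had 33.9 and 53.2 CPM at 12 h, against 45.9 and 81.3 CPM at 0 h (log2 fold −0.55, SE 0.10), and each pair fell although the groups overlapped. The repressor genes FLM and MAF3 fell by 0.58 and 1.1 on the log2 scale. FLC, another repressor, had 5.18 and 9.37 CPM at 12 h, against 3.92 and 3.61 CPM at 0 h (log2 fold 1.1), and had a log2 fold of 0.40 (adjusted p = 0.615) without the R2 library of 12 h. Of 12 reference genes, 1 rose and 2 fell, with a median of 0.02, but 0 rose with RLE size factors, with organelle genes left out, or with any 1 library left out. The share of reference genes that passed, 25%, was near the 21.3% of all genes. EIF4A1 fell by 0.51 on the log2 scale, so it was not level between these groups. With 1 library left out, 1 or 2 of the reference genes fell.

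**Figure D5:**
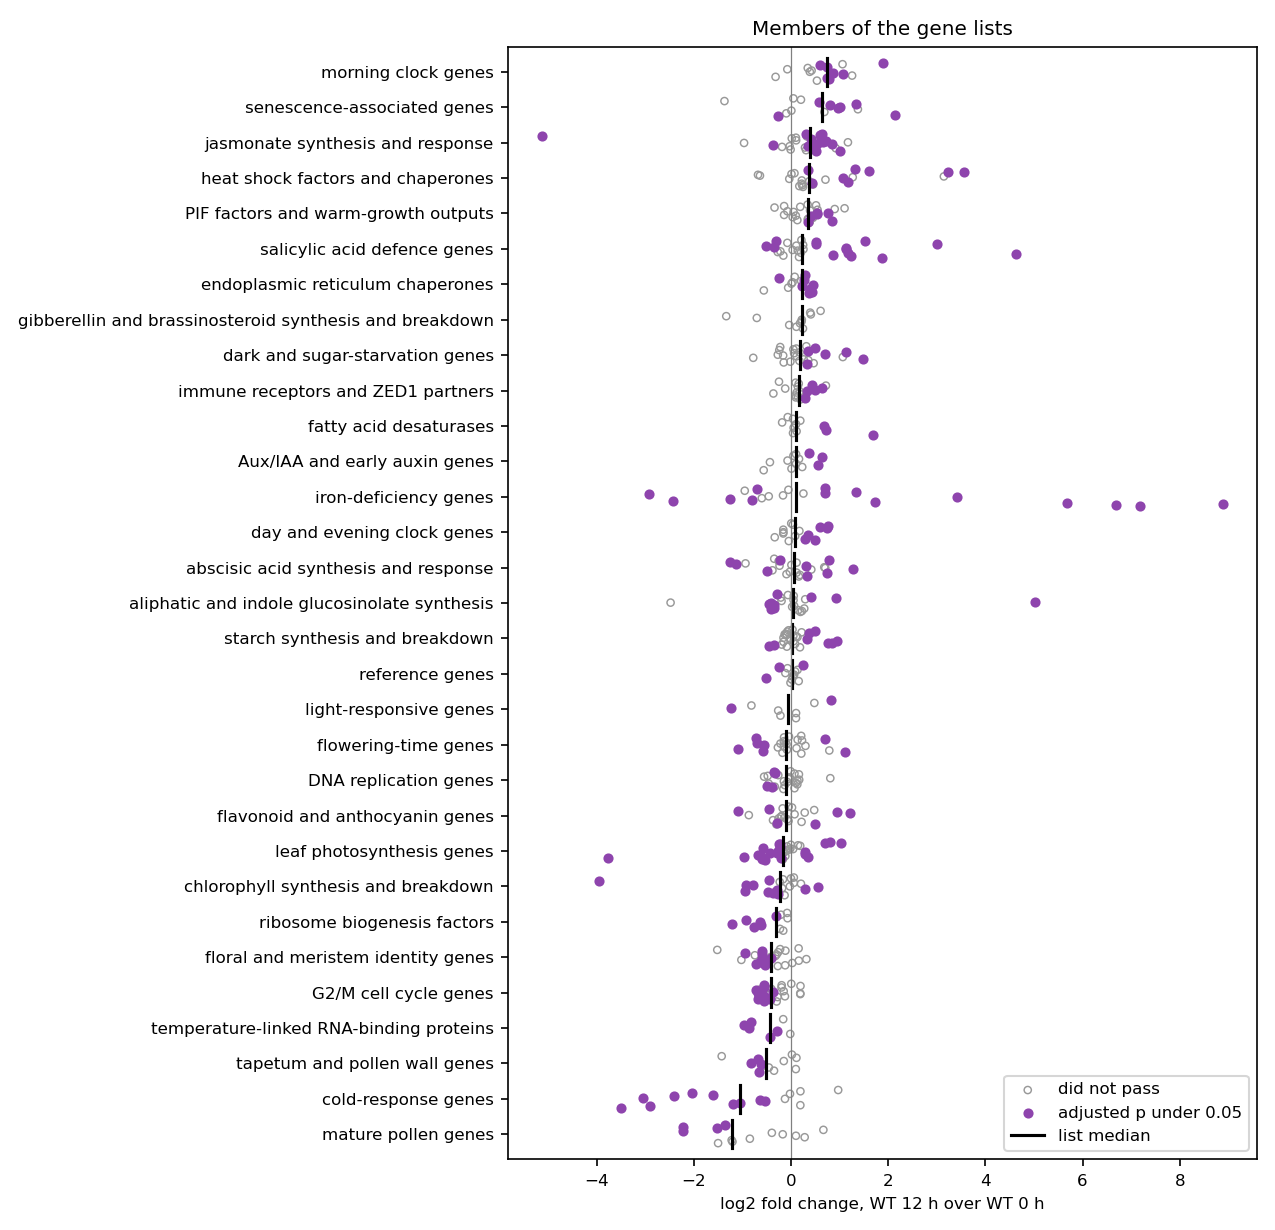
Log2 fold, WT 12 h over WT 0 h, of each tested member of the 31 gene lists, ordered by list median (black tick); filled points passed an adjusted p of 0.05 and open circles did not. Iron-deficiency genes span both ends of the axis, and the cold-response and mature pollen medians lie furthest below 0, at −1.06 and −1.21. The positions of the BHLH genes, NAS3, PDF1.2A, PRK2 and MYB122 are fitted folds of genes with few reads in 1 group, so they depend on the prior count and are no estimate of size.

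Without the pairing, edgeR called 0 genes in 14 of the 31 lists, where the number at an unadjusted p under 0.05 ranged between 0 and 7. These were the lists on PIF and warm growth, auxin, gibberellin and brassinosteroid, endoplasmic reticulum chaperones, desaturases, immune receptors, glucosinolates, flavonoids, light, G2/M, DNA replication, flowering time, tapetum and reference genes. Of the lists whose count without the pairing is not given above, 2 starch, 2 senescence, 1 dark and sugar-starvation and 1 abscisic acid gene rose, and 2 chlorophyll and 2 mature pollen genes fell.

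The same step in zed1-D moved more genes: 8485 of 19312 (43.9%), 4714 higher and 3771 lower. The zed1-D fold comes from other libraries than the WT fold, but all 16 libraries share the estimate of spread and the replicate block. With no expression filter 4274 were higher and 4344 lower. Of the 2004 genes that rose in WT, 1111 also rose in zed1-D and 82 fell there (4.09%). The 1111 were 55.4% of the WT list, where 24.4% of all genes rose in zed1-D. They were 23.57% of the zed1-D list, where 10.4% of all genes rose in WT. Of the 2103 that fell in WT, 1436 also fell in zed1-D and 225 rose there (10.7%). The 1436 were 68.3% of the WT list, where 19.5% of all genes fell in zed1-D. They were 38.1% of the zed1-D list, where 10.9% of all genes fell in WT. The 12 h over 0 h change differed between zed1-D and WT for 3887 genes, 2488 with a higher fold in zed1-D (12.9% of genes tested) and 1399 with a lower one (7.24%), and 628 passed without the pairing. This split depended on the fit: 2707 were higher and 2424 lower with the 4 compared groups fitted alone, and 2323 and 1859 with no expression filter.

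Among the genes described above, the cold gene COR15A fell by 3.3 on the log2 scale in zed1-D and by 3.5 in WT, and the interaction did not pass (0.20, adjusted p = 0.291). FMO1 rose by 4.11 in zed1-D and 4.62 in WT (interaction −0.51, SE 0.33, adjusted p = 0.322). At 0 h FMO1 already stood at 4.60 and 6.88 CPM in zed1-D, against 1.12 and 1.24 CPM in WT. HSP90.1 rose by 4.79 in zed1-D and 3.23 in WT (interaction 1.56, SE 0.26, adjusted p = 2.80e-05). FRO3 rose by 2.35 in zed1-D and 3.42 in WT (interaction −1.07, SE 0.22, adjusted p = 0.000383). FER1 fell by 0.90 in zed1-D and 2.44 in WT (interaction 1.54, adjusted p = 7.91e-09). ICS1 rose by 3.11 in zed1-D and 1.17 in WT (interaction 1.95, adjusted p = 1.25e-13). PIF4 had a log2 fold of −0.19 in zed1-D and rose by 0.53 in WT (interaction −0.72, adjusted p = 0.00597). Of the 26 salicylic acid genes, 23 had a higher fold in zed1-D (12.9% of all genes), and of the 20 iron genes, 7 had a lower one (7.24% of all genes).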

How the data were processed

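The deposited files give, for each of the 16 libraries, the number of uniquely mapped reads per gene and an RPKM value. Per the file headers the counts are whole uniquely mapped reads, and the deposited RPKM was recomputed from them in all 16 files and was not used further. Per the submitters' processing notes the build is TAIR10, and no aligner is given in the sources used here. A gene missing from a file was taken as 0. Each library held between 4.74 M and 11.4 M counted reads, and intervals cover counting error only.

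Counts were tested with edgeR 4.0.16 (R 4.3.3, limma 3.58.1) by quasi-likelihood, with all 16 libraries sharing 1 estimate of spread, TMM scaling, filterByExpr (19312 of 25444 identifiers), the replicate number as a block, and two-sided p-values adjusted by Benjamini-Hochberg within each comparison. SE is the log2 fold over the square root of F. The block follows the pairing by replicate number: same-numbered libraries deviated together in all 28 pairs of groups (r of 0.527 to 0.708, and 0.673 for WT 12 h with WT 0 h), though the labels do not say what the number marks. DESeq2 1.42.0 was an alternative. Other alternatives were no block, RLE scaling, no filter, organelle genes left out, thinning to equal depth, fewer libraries in the fit, a fold minimum, and each library left out.

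The comparison and the 31 gene lists were chosen with earlier results of these data known. Genes named are the 12 largest changes each way and the 4 smallest interaction p-values each way. Both rankings took genes that passed the test in question and whose log2 CPM averages 2 or more over the 4 WT libraries compared. The ranking by size of change also required both replicate pairs to move the same way and groups that did not overlap. Up to 4 passing members per list were added, and ZED1, ZAR1, SNC1, PIF4, HSFA2 and PR1. List members that did not pass are given as values, and other members named beside these were chosen after their values were seen. Promoter windows (250 bases before to 50 after the annotated start) and names come from RefSeq TAIR10.1. No set test was run.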

Additional observations from a re-analysis of the deposited data

Results flagged for a closer look

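The change between 0 h and 12 h differed between zed1-D and WT for 3887 genes, by a test of the difference itself (edgeR interaction term with the replicate block). The 8 genes below had the smallest adjusted p in each direction. All 8 values are the zed1-D fold minus the WT fold on the log2 scale.

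TAT3, a tyrosine aminotransferase gene, had a difference of 3.27 (SE 0.14), with a log2 fold of 3.94 in zed1-D and 0.67 in WT. AT4G20830 had a difference of 2.60, with folds of 2.41 in zed1-D and −0.19 in WT, where it did not pass. GSTF2, a glutathione transferase, had a difference of 2.07, with folds of 2.50 in zed1-D and 0.42 in WT. PR2, the glucanase, had a difference of 2.18, with a fold of 1.84 in zed1-D and −0.35 in WT, so it rose in one genotype and fell in the other.

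The others belong to methionine-derived glucosinolate synthesis or amino acid metabolism. BCAT4, an aminotransferase of that route, had a difference of −1.73, with folds of −1.54 in zed1-D and 0.19 in WT, where it did not pass. CYP79F1 had a difference of −1.59, with folds of −2.0 in zed1-D and −0.41 in WT. AK3, an aspartate kinase, had a difference of −1.73, with folds of −1.72 in zed1-D and 0.01 in WT, where it did not pass. MAM1 had a difference of −1.35, with folds of −1.76 in zed1-D and −0.42 in WT. TAT3, GSTF2, CYP79F1 and MAM1 passed in both genotypes with the same sign.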

How the results depend on the processing

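The replicate block, meaning the pairing by replicate number, moved every count below by over 1.5 times. Without it, 292 genes passed for WT 12 h against WT 0 h (2267 at an unadjusted p under 0.05), 628 for the interaction, 265 for WT 12 h against WT 48 h, 255 for WT 12 h against WT 3 h and 2863 for the step in zed1-D. Requiring a log2 fold of at least 1 left 547, 1523, 688, 496 and 2257 genes in the same order. DESeq2 with the block called 2696 for 12 h against 0 h, 2286 for 12 h against 48 h and 1558 for 12 h against 3 h. Leaving out 1 library gave 1903 (without the R2 library of WT 12 h) to 3077 for 12 h against 0 h, 2480 to 3506 for the interaction, 1179 to 2924 against 48 h, 935 to 1748 against 3 h and 5761 to 7396 for zed1-D. Apart from a fit with fewer samples or a stricter rule, the cause was not tested. Other alternatives kept each of these totals within 1.5 times, but with the compared groups fitted alone the interaction called 2424 lower folds, against 1399. Of 131 named genes that passed, 42 also passed without the block and 89 did not; 89 passed with each library left out in turn and 42 failed at least once; no sign turned among them. Among genes that did not pass, ZED1 ranged from a log2 fold of −0.51 (without WT 0 h R2) to 0.106 (without WT 12 h R2), and AK3 had −0.00262 without the block, −0.029 without WT 12 h R2, −0.0422 without WT 0 h R2 and 0.0503 without WT 0 h R1. With 2 libraries a group, changes of a gene at a few reads rest on wide counting intervals.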

Other observations

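Several of the largest changes at 12 h fell outside the gene lists. AT4G19430 had 14.0 and 12.2 CPM at 12 h, against 1.305 and 1.81 CPM at 0 h (log2 fold 2.96, SE 0.27), and its log2 fold against 0 h was 2.61 at 3 h and 4.65 at 48 h. AT3G28510 had 13.4 and 18.8 CPM at 12 h, against 2.24 and 3.23 CPM at 0 h (log2 fold 2.54), with folds of −3.40 at 3 h and −1.36 at 48 h. AT3G22910 rose by 2.49 at 12 h, with folds of −1.04 at 3 h and −0.72 at 48 h. AT1G21525, a transcribed pseudogene in RefSeq, rose by 2.60 at 12 h, with folds of −1.96 at 3 h and −0.82 at 48 h. For these last 3 genes the 12 h fold was positive and the 3 h and 48 h folds were negative.

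Among genes that fell, EMB2729 had 16.0 and 11.2 CPM at 12 h, against 49.98 and 40.9 CPM at 0 h (log2 fold −1.79, SE 0.13), with folds of −2.07 at 3 h, −2.01 at 48 h and −2.16 at 12 h in zed1-D. AT3G43670 had 16.2 and 16.3 CPM at 12 h, against 76.3 and 65.6 CPM at 0 h (log2 fold −2.09), with folds of −1.19 at 3 h and −1.84 at 48 h. AT3G14040 fell by 1.81 on the log2 scale at 12 h in WT, and its log2 fold was 1.15 for the same step in zed1-D.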
